A study of Mus musculus with 8 samples.

Results

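The contractile genes of myofibroblasts were followed across both experiments of this series. The 10 genes were Acta2, Actg2, Tagln, Cnn1, Cnn2, Tpm1, Tpm2, Myl9, Mylk and Myh11, and they were taken by symbol, from a list drawn up with earlier results of these data known. All 10 were found among the 18645 genes of the table for activated hepatic stellate cells (AHSC) and among the 17408 genes of the table for bone marrow-derived macrophages (BMDM).

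Primary stellate cells were isolated from the livers of C57BL/6 mice by density-gradient centrifugation. The paper describes such quiescent cells as becoming activated when grown with serum on bare plastic. The AHSC were exposed to vehicle or to 0.03 µM auranofin, an oral gold compound used against rheumatoid arthritis, for 12 h. The labels call the AHSC control untreated, whereas the paper speaks of vehicle, and it is called vehicle here. BMDM were grown from the bone marrow of 8-week-old male C57BL/6 mice with M-CSF for 7 days. All BMDM libraries, control and treated, came from cells given LPS at 100 ng/mL and ATP at 1 mM, with or without auranofin for 1 h, at 0.1 µM by the labels and 0.3 µM by the paper. Each of the 4 groups had 2 libraries, and nothing in the labels says that these came from separate cultures or animals, so that the p-values may measure technical spread only.

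Hepatic stellate cells store vitamin A in the healthy liver and become myofibroblasts when the liver is injured, laying down collagen and gaining the power to contract. Contraction rests on smooth muscle actin filaments, on tropomyosins and calponins that lie along them and set access to myosin, and on smooth muscle myosin, which is switched on when myosin light chain kinase phosphorylates its regulatory light chain. Serum response factor (SRF) and its cofactors drive most of these genes through a DNA element called the CArG box. α smooth muscle actin, the product of Acta2, is the standard mark of the activated stellate cell.

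The CArG box, CC followed by 6 bases of A or T and then GG, was looked for in the 250 bases before the start of each gene in the RefSeq promoter table (GRCm38.p6), because it is the element that these genes are known to share. A window was found for 7 of the 10 genes. Actg2, Tagln and Myh11 had none. An exact CArG box lay in 2 of the 7 windows (Cnn2 and Myl9), against 1.47% of 32851 windows of the same length. With at most 1 base other than A or T in the core, Acta2 joined them, giving 3 of 7 against 8.59% of all windows. The motif GGAATG, on either strand, which the TEAD factors bind, lay in 3 of the 7 (Acta2, Tpm1 and Mylk) against 12.6% of all windows. The stretches around these matches are shown 5′ to 3′ on the strand of the gene, with the matched letters in capitals. The relaxed form and GGAATG were added after the exact box had been searched.
Acta2, chr19:34255438-34255467, minus strand, 84 bases before the start, relaxed CArG: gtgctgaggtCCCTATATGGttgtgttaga
Acta2, chr19:34255388-34255417, minus strand, 34 bases before the start, relaxed CArG: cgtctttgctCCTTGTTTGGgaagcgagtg
Cnn2, chr10:79988534-79988563, plus strand, 56 bases before the start, exact CArG: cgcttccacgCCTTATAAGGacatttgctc
Myl9, chr2:156775293-156775322, plus strand, 161 bases before the start, exact CArG: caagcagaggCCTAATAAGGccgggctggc
Myl9, chr2:156775355-156775384, plus strand, 99 bases before the start, relaxed CArG: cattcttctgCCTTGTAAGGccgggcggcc
Acta2, chr19:34255502-34255531, minus strand, 146 bases before the start: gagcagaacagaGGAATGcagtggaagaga
Tpm1, chr9:67049252-67049281, minus strand, 56 bases before the start: tggctgtcctaaGGAATGcggtcgcccccc
Mylk, chr16:34784780-34784809, plus strand, 158 bases before the start: tgcagttcagaaCATTCCctggtacgtgca
A start in this table is that of 1 transcript, and 6 of the 7 windows reached into the annotated span of their gene. The windows of Tpm1 and Mylk lay wholly inside it, with 212 of 250 bases inside for Acta2, 56 for Myl9, 32 for Cnn1 and 29 for Tpm2, and that of Cnn2 lay before its gene. A match is a run of letters and not a measured binding site, and no binding was measured in this series.

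The values are FPKM, fragments per kilobase of transcript and per fixed number of fragments in the library, so that levels of different genes can be set beside each other. From the steps between low values, the libraries held an estimated 29800000 to 39400000 fragments in AHSC and 27500000 to 34900000 in BMDM, which covers counting error only. The deposited AHSC libraries carried the transcripts of more than stellate cells. The 12 stellate markers, led by Col1a1, summed to between 2806 and 3167 FPKM per AHSC library, and Lrat, a defining gene of the vitamin A-storing cell, was at 1.70 to 2.85 FPKM. The 15 macrophage markers summed to between 8205 and 8439 FPKM in the same libraries, and to between 8850 and 9811 FPKM in BMDM. The larger part of the AHSC sum was Lyz2, at 5380 to 5550 FPKM in AHSC against 3630 to 4280 FPKM in BMDM. Without Lyz2, left out after the data had been seen, the other 14 macrophage markers summed to between 2765 and 2886 FPKM in AHSC and to between 5225 and 5532 FPKM in BMDM. Cd68 was at 645 to 670 FPKM in AHSC against 1760 to 1920 FPKM in BMDM, whereas the Kupffer cell genes Clec4f and Vsig4 were higher in AHSC, at 58.6 to 73.5 and 249 to 261 FPKM against less than 1 FPKM. Timd4, also a Kupffer cell gene, was near 0 in both, at 0.262 to 0.61 FPKM in AHSC and 0.0998 to 0.606 FPKM in BMDM. Endothelial markers summed to between 188 and 201 FPKM in AHSC, and hepatocyte markers to between 1.13 and 2.47 FPKM. In such bulk RNA, fewer cells of a type and less RNA per cell cannot be told apart.

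In AHSC all 10 contractile genes were lower in both auranofin libraries than in both vehicle libraries. The fall passed the test for 6 of them, Myh11, Actg2, Acta2, Cnn1, Myl9 and Mylk, by limma with a Benjamini-Hochberg adjusted p under 0.05 over the 12149 genes tested. The same rule called 1.09% of all genes tested lower. The falls were moderate, between 18.5% and 26.3% in FPKM for the 6 genes. Of all genes tested, 23.9% had both auranofin libraries below both vehicle libraries. None of the 10 genes (0) passed the rule of a 1.5-fold change with an unadjusted p under 0.05, which 0.576% of all genes passed, whereas all 10 had an unadjusted limma p under 0.05 in the lower direction, against 9.22% of all genes. The median difference of the 10 genes was -0.31 on the log2(FPKM + 1) scale and that of all genes tested was 0.00. All differences and standard errors below are on this scale. With 2 libraries against 2, an exact permutation test of a single gene cannot go below a two-sided p of 0.333. The number called by the adjusted p was 3 without auranofin replicate 2 (Acta2, Myh11 and Myl9), 4 without auranofin replicate 1, 9 without vehicle replicate 2, and 0 with no filter on low values or with no moderation of the variances, with every estimate still below 0.

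The contractile genes are among the more abundant ones in these cells, and all 10 passed the minimum mean of 1 FPKM. Among the 3224 genes whose mean was no lower than that of Myh11 (23.4 FPKM), the lowest of the 10 genes, 2.08% were called lower and 26.1% had both auranofin libraries below both vehicle libraries. This comparison by level was added after the data had been seen. Ranked by difference from the lowest of the 12149 genes, Myh11 stood at place 121, Actg2 at 156, Acta2 at 165, Cnn1 at 185 and Myl9 at 221. Mylk stood at place 336, Tpm2 at 419, Cnn2 at 431, Tpm1 at 586 and Tagln at 596.

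**Figure D1:**
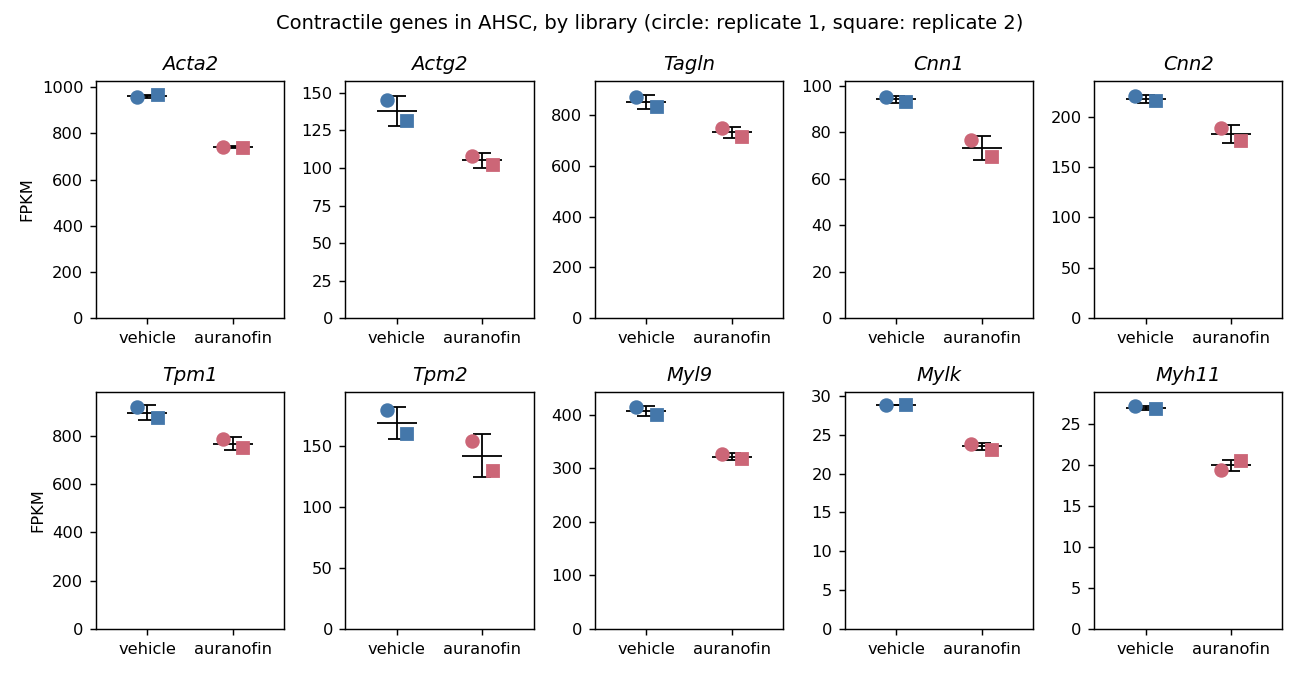
FPKM of the 10 contractile genes in AHSC, from 0, in the vehicle and auranofin groups, with 1 point per library and the mean and SD of the 2 libraries as bars. In every panel both auranofin points lie below both vehicle points, with Acta2 at 956 and 965 against 743 and 737 FPKM.

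The smooth muscle actins come first, as they form the filament itself. Acta2 (gene identifier 11475, chr19:34240336-34255585) was at 956 and 965 FPKM in the vehicle libraries and at 743 and 737 FPKM in the auranofin libraries. The libraries of each group lay within a few FPKM of each other, on an estimated 45100 to 64800 fragments per library, and the groups did not overlap. Acta2 fell by 0.38 (SE 0.031, 95% interval -0.45 to -0.30, n = 2 per group, limma with Benjamini-Hochberg adjusted p = 0.00719), or 23.0% in FPKM, the lowest adjusted p of the 10 genes. By quantitative PCR, the paper saw no change in Acta2 mRNA of primary stellate cells kept with 0.03 µM auranofin for a week. It reports lower Acta2 mRNA in whole fibrotic livers of treated mice. Time, method and material differ from those of the 12 h libraries. Actg2 (11468, chr6:83512909-83536251), which encodes the γ actin of enteric smooth muscle, was at 145 and 131 FPKM with vehicle and at 108 and 102 FPKM with auranofin. Its vehicle libraries were farther apart than those of Acta2, and the groups again did not overlap. Actg2 fell by 0.39 (SE 0.06, n = 2 per group, limma with Benjamini-Hochberg adjusted p = 0.0395), or 23.7% in FPKM.

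Actin-binding proteins that lie along these filaments were next. Tagln (21345, chr9:45929628-45936058), which encodes transgelin or SM22α, an early marker of smooth muscle, was at 872 and 832 FPKM with vehicle and at 747 and 715 FPKM with auranofin. The groups did not overlap, and the difference was -0.22 (SE 0.041, n = 2 per group, limma with Benjamini-Hochberg adjusted p = 0.0616). Cnn1 (12797, chr9:22099221-22109221), the calponin of differentiated smooth muscle, was at 95.3 and 92.9 FPKM with vehicle and at 76.8 and 69.5 FPKM with auranofin. The auranofin libraries were the wider pair here. Cnn1 fell by 0.36 (SE 0.054, n = 2 per group, limma with Benjamini-Hochberg adjusted p = 0.0361), or 22.3% in FPKM. Cnn2 (12798, chr10:79988600-79995400), a calponin that non-muscle cells also express, was at 221 and 216 FPKM with vehicle and at 189 and 176 FPKM with auranofin. Its groups did not overlap, and its difference of -0.26 (SE 0.044, n = 2 per group, limma with Benjamini-Hochberg adjusted p = 0.0522) lay just outside the threshold.

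Tropomyosins are coiled coils that run along the actin filament, and neither of the pair passed the test. Tpm1 (22003, chr9:67022590-67049672), the most abundant tropomyosin of these cells, was at 918 and 875 FPKM with vehicle and at 788 and 749 FPKM with auranofin. The groups did not overlap, and the difference was -0.22 (SE 0.042, n = 2 per group, limma with Benjamini-Hochberg adjusted p = 0.0649). Tpm2 (22004, chr4:43513726-43523583) was at 179 and 160 FPKM with vehicle and at 154 and 129 FPKM with auranofin. The spread within its groups was the widest of the 10 genes relative to the level, and the lower vehicle library stood only a little above the higher auranofin library. The difference in Tpm2 was -0.26 (SE 0.092, 95% interval -0.49 to -0.03, n = 2 per group, limma with Benjamini-Hochberg adjusted p = 0.23).

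The myosin arm, which pulls on the filament, passed the test in full. Myh11 (17880, chr16:14194527-14292188), the heavy chain of smooth muscle myosin, was at 27.1 and 26.8 FPKM with vehicle and at 19.4 and 20.4 FPKM with auranofin. It had the largest difference of the 10 genes and was also the least abundant of them. Myh11 fell by 0.42 (SE 0.042, 95% interval -0.53 to -0.32, n = 2 per group, limma with Benjamini-Hochberg adjusted p = 0.0116), or 26.3% in FPKM. Myl9 (98932, chr2:156775408-156781657), the regulatory light chain on which the kinase acts, was at 414 and 400 FPKM with vehicle and at 326 and 317 FPKM with auranofin. Both auranofin libraries were far below both vehicle libraries in relation to the spread. Myl9 fell by 0.34 (SE 0.036, n = 2 per group, limma with Benjamini-Hochberg adjusted p = 0.013), or 20.9% in FPKM. Mylk (107589, chr16:34745199-35002436), the light chain kinase, was at 28.8 FPKM in both vehicle libraries and at 23.8 and 23.1 FPKM with auranofin. Its libraries were close together in both groups, with an estimated 5550 to 7440 fragments each. Mylk fell by 0.28 (SE 0.038, n = 2 per group, limma with Benjamini-Hochberg adjusted p = 0.0267), or 18.5% in FPKM.

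**Figure D2:**
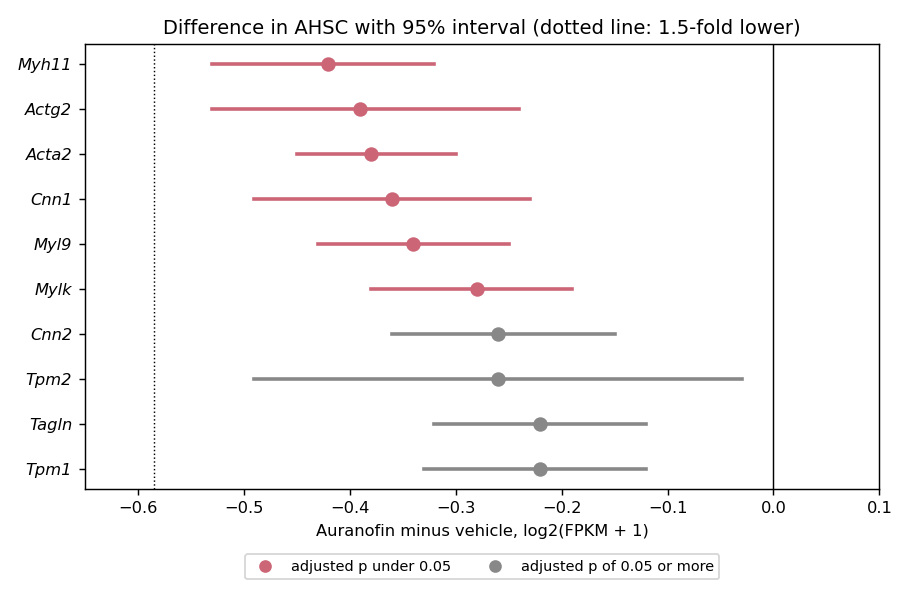
Difference between auranofin and vehicle in AHSC on the log2(FPKM + 1) scale for the 10 contractile genes, with 95% intervals from limma. All 10 intervals lie below 0 and above the dotted line of a 1.5-fold fall, from -0.42 for Myh11 to -0.22 for Tagln and Tpm1.

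The order of the genes by level in AHSC was much the same in both groups. With vehicle, Acta2 had the highest mean at 960 ± 6.49 FPKM (SD, n = 2), followed by Tpm1 at 896 ± 30.7 and Tagln at 852 ± 28.3 FPKM. Acta2 was above Tpm1 in both vehicle libraries and below it in both auranofin libraries. With auranofin the means were 768 ± 27.3 FPKM for Tpm1, 740 ± 4.59 for Acta2 and 731 ± 22.9 for Tagln, and the values of Acta2 lay within the range of those of Tagln. The other 7 genes kept their order, from Myl9 at 407 ± 9.94 FPKM with vehicle down to Mylk at 28.8 ± 0.00562 and Myh11 at 26.9 ± 0.197 FPKM.

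Each contractile gene, except Mylk, belongs to a family with non-muscle or other relatives. Its share of the summed FPKM of that family is a measure that a common shift of the family leaves unchanged. A share can also change with the mix of cells in a library, and the part of that mix was not tested. In vehicle BMDM, Tagln2 averaged 531 FPKM against 0.491 for Tagln, and Tpm3 261 FPKM against 26.3 for Tpm1. The share was lower in both auranofin libraries than in both vehicle libraries for 7 of the 9 genes. No matching figure over all genes was computed for this measure. The exact permutation p was 0.333 for each of these 7 and 0.667 for Actg2 and Tpm2, whose groups overlapped, and 0.333 is the smallest that the design allows. Myl9 made up 46.6% and 46.5% of the regulatory light chains Myl9, Myl12a and Myl12b with vehicle and 42.2% and 42.3% with auranofin. Myl12b, a light chain of non-muscle cells, had a difference in level of 0.02 (SE 0.037) on the log2 scale. Myl12a had one of -0.15 (SE 0.036, limma with Benjamini-Hochberg adjusted p = 0.118), and its groups did not overlap. Thus the balance of the light chains differed between the groups by several times the distance between replicates.

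Myh11 made up 9.48% and 9.17% of the myosin II heavy chains with vehicle and 7.45% and 7.75% with auranofin. Myh9, the main non-muscle heavy chain, took 80% and 80.2% with vehicle and 82.7% and 82.4% with auranofin. In level Myh9 differed by -0.1 (SE 0.032, limma with Benjamini-Hochberg adjusted p = 0.192). The other non-muscle heavy chain, Myh10, fell by 0.24 in level (SE 0.038, n = 2 per group, limma with Benjamini-Hochberg adjusted p = 0.0439).

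Among calponins and tropomyosins the share was lower in both auranofin libraries for Cnn1, Cnn2 and Tpm1. Cnn1 held 20.2% and 20.3% of the calponin FPKM with vehicle and 18.3% and 17.6% with auranofin. Cnn3, the third calponin, held 33.0% and 32.7% and then 36.5% and 37.6%, with a difference in level of -0.02 (SE 0.038). Tpm1 held 58.1% and 58.9% of the tropomyosins with vehicle and 55.4% and 56.1% with auranofin. Tpm3, a cytoskeletal tropomyosin, held 11.4% and 10.9% and then 13.4% and 13.8%. For Tpm3 the difference in level was 0.13 (SE 0.055, n = 2 per group, limma with Benjamini-Hochberg adjusted p = 0.296). Tagln held 79.1% and 78.7% of the transgelins with vehicle and 77.5% and 77.1% with auranofin. The relatives Tagln2 and Tpm4 differed in level by -0.08 (SE 0.034) and -0.07 (SE 0.045), neither past the adjusted p.

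Among the actins the cytoplasmic forms were lower as well. Acta2 made up 21.4% and 20.9% of the actin FPKM with vehicle and 19.6% and 19.8% with auranofin. Actb, the cytoplasmic β actin, was at 2100 and 2180 FPKM with vehicle and at 1770 and 1740 FPKM with auranofin. Its groups did not overlap, and it fell by 0.29 (SE 0.036, n = 2 per group, limma with Benjamini-Hochberg adjusted p = 0.0233) and kept 46.8% to 47.1% of the actin FPKM in every AHSC library. Actg1, the cytoplasmic γ actin, was at 1270 and 1350 FPKM with vehicle and at 1160 and 1130 FPKM with auranofin. The difference in Actg1 was -0.19 (SE 0.041, n = 2 per group, limma with Benjamini-Hochberg adjusted p = 0.0905). It held 28.4% and 29.1% of the actin FPKM with vehicle and 30.7% and 30.5% with auranofin. The summed FPKM of the actin family was 4551 on average with vehicle and 3753 with auranofin. Close relatives share sequence, and reads from shared stretches may be split between them in ways that the tables do not show. The longest identical run between annotated transcripts was 56 bases for Acta2 and Actg1, 29 for Acta2 and Actg2, 65 for Myh11 and Myh9, 37 for Tpm1 and Tpm2 and 35 for Myl9 and Myl12a.

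**Figure D3:**
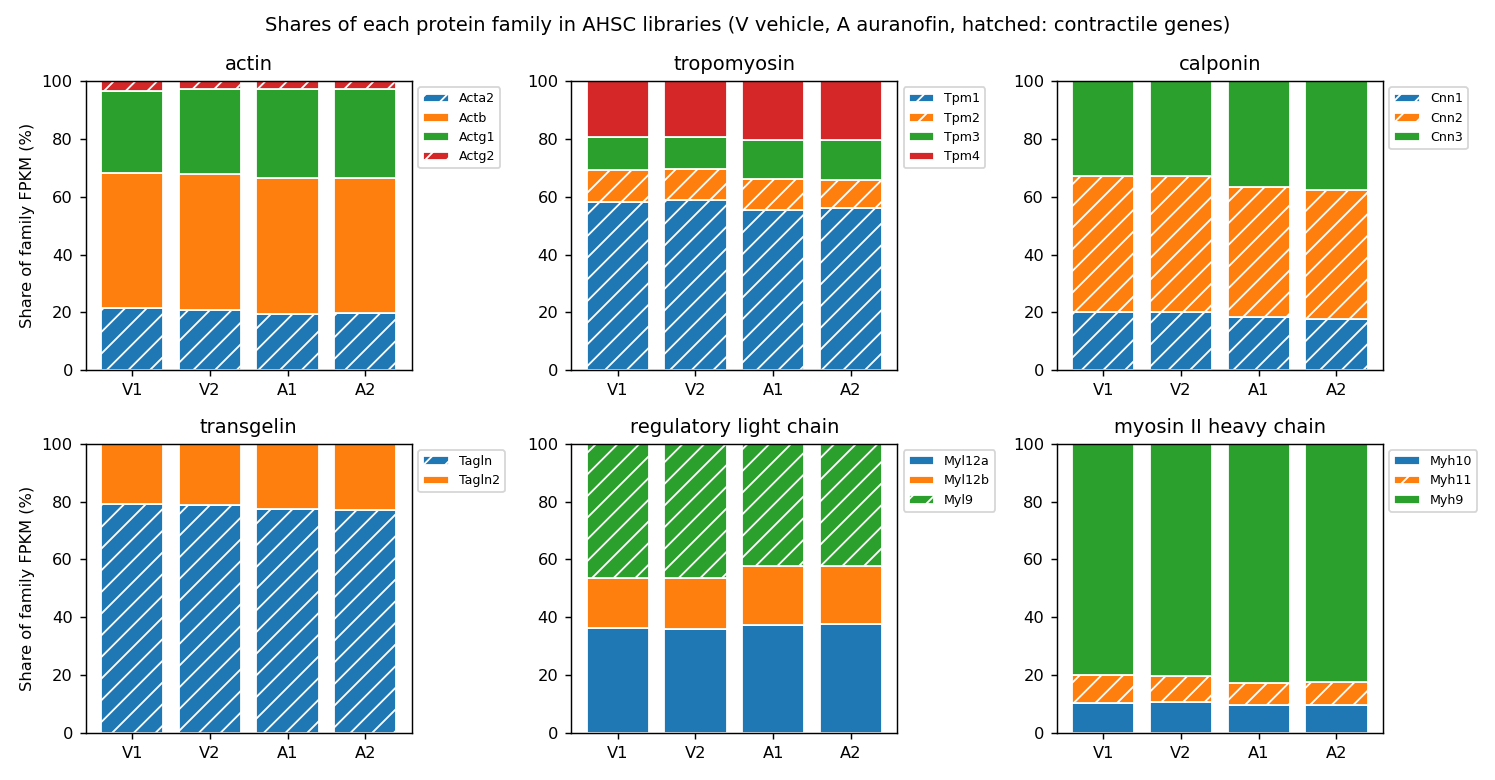
Share of each gene in the summed FPKM of its protein family, in percent, in the 2 vehicle (V1, V2) and 2 auranofin (A1, A2) AHSC libraries, with the contractile genes hatched and genes under 1% left out. Myl9 goes from 46.6% and 46.5% with vehicle to 42.2% and 42.3% with auranofin.

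The wider contractile apparatus was described with a list of 34 partner genes, the other filament, adhesion and Z-line-like proteins of smooth muscle, of which 32 were tested in AHSC. Of these, 8 fell and 0 rose by limma with a Benjamini-Hochberg adjusted p under 0.05, whereas 1.09% of all genes tested fell. At an unadjusted limma p under 0.05, 23 were lower, against 9.22% of all genes. The median difference was -0.18. The largest of the falls was that of Pdlim3, a PDZ and LIM domain protein of actin bundles, from 3.6 and 3.44 FPKM to 2.38 and 2.35 FPKM, a difference of -0.43. Smtn, the smooth muscle protein smoothelin, went from 39.1 and 41.5 FPKM to 31.8 and 30.9 FPKM, a difference of -0.35. Vcl, vinculin, which ties actin to adhesions, went from 87.7 and 87.4 FPKM to 70.4 and 68.0 FPKM, a difference of -0.33. Lmod1, the smooth muscle leiomodin that nucleates actin filaments, had a difference of -0.32. Beside these and Actb and Myh10, Csrp1 and Actn1 were the remaining members of the list that fell, at -0.28 and -0.25, and both were named after their values were seen.

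Genes that control the switching of myosin were looked at next. Of 13 genes of myosin control, 1 fell by limma with a Benjamini-Hochberg adjusted p under 0.05, against 1.09% of all genes tested. At an unadjusted limma p under 0.05, 4 were lower, against 9.22% of all genes, and none was higher. The median was -0.07. The called gene was Ppp1r14a, which encodes CPI-17, an inhibitor of myosin phosphatase, at 20.2 and 21.1 FPKM with vehicle and at 16.6 and 15.5 FPKM with auranofin (difference -0.34). In the list of 17 transcriptional controllers, 14 were tested, of which 1 fell by the same rule. At an unadjusted limma p under 0.05, 5 were lower and none was higher, and the median was -0.06. The shares of all genes are those given for myosin control. The gene that fell was Fhl2, a LIM-only cofactor that is itself a known SRF target, at 33.2 and 33.1 FPKM with vehicle and at 25.9 and 25.1 FPKM with auranofin (difference -0.36). Srf was at 16.2 and 16.6 FPKM with vehicle and at 15.1 and 14.2 FPKM with auranofin, a difference of -0.15 (SE 0.047, n = 2 per group, limma with Benjamini-Hochberg adjusted p = 0.19). Mkl1, which encodes the SRF cofactor MRTF-A, had the same estimate of -0.15 with an adjusted p of 0.116 (limma, Benjamini-Hochberg). Myocd, the smooth muscle cofactor myocardin, was near 0 in AHSC, at 0.0255 to 0.0533 FPKM.

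**Figure D4:**
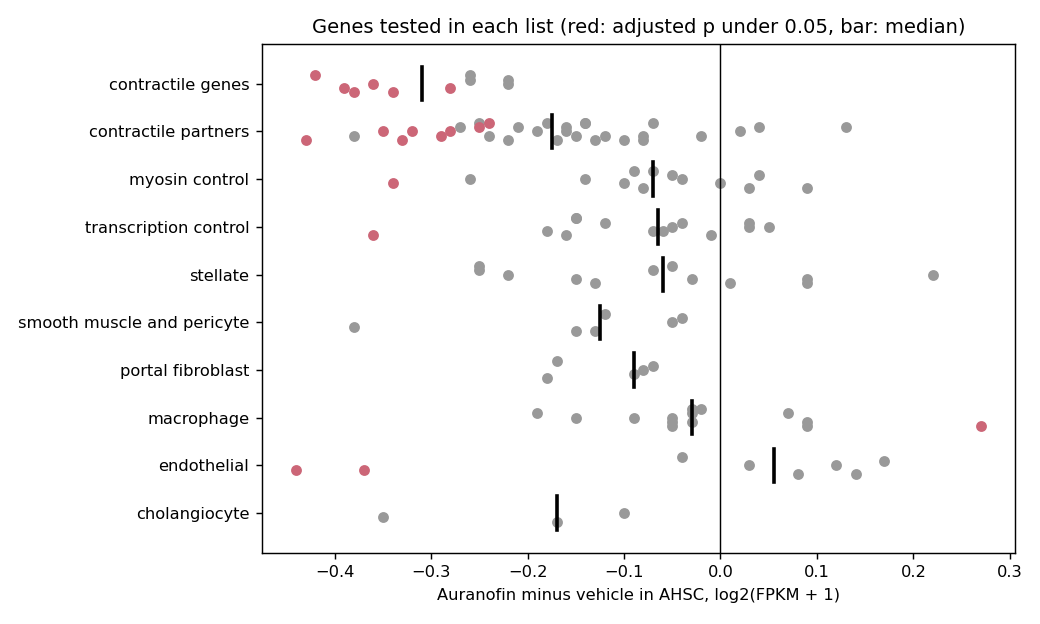
Difference between auranofin and vehicle in AHSC on the log2(FPKM + 1) scale for the genes tested in each list, with 1 point per gene, red points for a limma adjusted p under 0.05 and a bar at the median. The contractile genes have a median of -0.31, their partners -0.18, and the stellate and macrophage markers -0.06 and -0.03.

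Cell type markers were measured beside these falls. Of 12 stellate markers, 0 passed limma with a Benjamini-Hochberg adjusted p under 0.05, with a median of -0.06. At an unadjusted limma p under 0.05, 4 were called, all lower, against 9.22% of all genes called lower. Col1a1 was at 1000 and 1070 FPKM with vehicle and at 927 and 973 FPKM with auranofin. Des, which encodes desmin and also stands in the partner list, differed by -0.25 and Lrat by 0.22, neither past the test. The 10 contractile genes summed to 1.28 and 1.18 times the stellate markers in the vehicle libraries and to 1.13 and 1.04 times in the auranofin libraries. Against the macrophage markers the ratios were 0.461 and 0.442 with vehicle and 0.386 and 0.370 with auranofin. The collagens Col1a1, Col1a2 and Col3a1 together stood at 0.25 and 0.266 of the macrophage markers with vehicle and at 0.23 and 0.244 with auranofin, also lower in both auranofin libraries. Acta2 stood at 0.955 and 0.898 of Col1a1 with vehicle and at 0.802 and 0.757 with auranofin. In relation to Col1a1 of the same library, 6 of the 10 genes (Acta2, Actg2, Cnn1, Myl9, Mylk and Myh11) were lower in both auranofin libraries. The groups overlapped for the other 4 (Tagln, Cnn2, Tpm1 and Tpm2). In level, Col1a1 differed by -0.13, Col1a2 by -0.15 and Col3a1 by -0.22, the last as much as Tagln and Tpm1. Ratios of single genes to Col1a2 or Col3a1 were not computed, so the count of 6 is for Col1a1 alone. The share of all genes lower in the ratio to Col1a1 was not computed, so this count has no background here. The 23.9% of all genes lower on FPKM itself is another measure. These ratios were added after the data had been seen.

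Among other cell types, smooth muscle and pericyte markers had a median of -0.12 over 6 genes tested and portal fibroblast markers one of -0.09 over 5. In both lists 0 genes passed limma with a Benjamini-Hochberg adjusted p under 0.05, with 1 and 2 at an unadjusted p under 0.05. The smooth muscle and pericyte markers summed to 39.7 to 43.1 FPKM, and the defining pericyte gene Rgs5 was at 1.46 to 2.05 FPKM in all AHSC libraries. The portal fibroblast markers summed to 528 to 586 FPKM, most of it Fbln2 at 487 to 539 FPKM. Macrophage markers had a median of -0.03 over 14 genes, with 1 risen, the Kupffer cell lectin Clec4f (0.27), and 3 at an unadjusted p under 0.05. Of the other Kupffer cell genes, Vsig4 differed by -0.03. Timd4 was too low to be tested, at 0.568 and 0.61 FPKM with vehicle and at 0.262 and 0.29 FPKM with auranofin. Endothelial markers had a median of 0.05 over 8 genes, with 2 that fell, Clec4g (-0.44) and Stab2 (-0.37), both genes of the liver sinusoid. Lyve1, another gene of the sinusoid in the list, differed by -0.04 (SE 0.049) and was not called. Another 2 endothelial markers, Kdr (0.17) and Cdh5 (0.14), were higher at an unadjusted limma p under 0.05 and did not pass the adjusted one. Cholangiocyte markers had a median of -0.17 over 3 genes, 0 by the adjusted p and 2 at an unadjusted p under 0.05, and 0 hepatocyte markers reached the minimum level. Of all 12149 genes tested in AHSC, 283 passed the adjusted p and 2161 the unadjusted limma p, in either direction. The part of these cell types in the falls of the contractile genes was not tested.

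In BMDM 8 of the 10 contractile genes averaged less than 1 FPKM. The comparison across cell types is one of levels only, as the tables were normalized separately and were not tested against each other. Only Tpm1 and Cnn2 reached a mean of 1 FPKM over the 4 BMDM libraries and were tested. Acta2, the gene with the highest level in AHSC, was at 0.983 and 0.802 FPKM in the LPS/ATP vehicle libraries and at 1.01 and 1.10 FPKM with auranofin, on an estimated 44.9 to 77.4 fragments per library. Tagln was at 0.776 and 0.205 FPKM with vehicle and at 0.2 and 0.328 FPKM with auranofin. In Tagln a single vehicle library was apart from the other 3 and the groups overlapped.

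The remaining genes with a mean under 1 FPKM lay near the limit of detection in BMDM. Cnn1 was at 0.0340 and 0 FPKM with vehicle and at 0.0288 and 0.0146 FPKM with auranofin, which stands for an estimated 0 to 2.41 fragments per library. Myh11 was listed at 0 in 1 library of each group and at 0.0152 and 0.00432 FPKM in the others. Actg2 was at 0.102 and 0.0553 FPKM with vehicle and at 0.348 and 0.119 FPKM with auranofin, on 2.03 to 16.2 estimated fragments. Myl9 lay between 0.0528 and 0.310 FPKM and Tpm2 between 0.108 and 0.324 FPKM, with overlapping groups. Mylk was at 0.112 and 0.11 FPKM with vehicle and at 0.0292 and 0.0922 FPKM with auranofin, on 7.99 to 26.2 estimated fragments. The 8 genes with a mean under 1 FPKM were not tested in BMDM, and on so few fragments their values carry a large counting error, least so for Acta2.

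**Figure D5:**
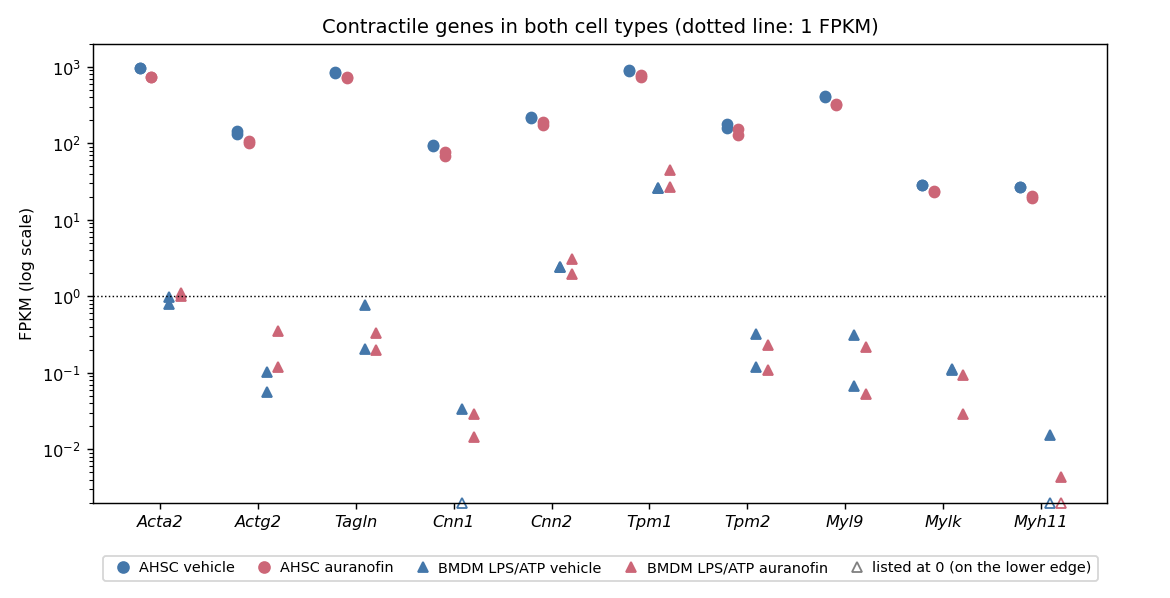
FPKM of the 10 contractile genes in each AHSC library (circles) and each BMDM library (triangles) on a log axis, with values listed at 0 drawn as open symbols on the lower edge. All AHSC points lie above 19 FPKM, and in BMDM only Tpm1 and Cnn2 have all points above the dotted line of 1 FPKM.

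Tpm1 was the one contractile gene with a sizeable level in macrophages. It was at 26.4 and 26.3 FPKM with vehicle and at 45.2 and 27.0 FPKM with auranofin. Both auranofin libraries were above both vehicle libraries, as for 26.3% of all genes tested in BMDM, but the second exceeded them by little. The difference was 0.39 (SE 0.27, 95% interval -0.37 to 1.16, n = 2 per group, limma with Benjamini-Hochberg adjusted p = 0.721). Cnn2 was at 2.39 and 2.42 FPKM with vehicle and at 1.97 and 3.07 FPKM with auranofin, so that the vehicle values lay between the auranofin values. Its difference was 0.03 (SE 0.2, 95% interval -0.52 to 0.59, n = 2 per group, limma with Benjamini-Hochberg adjusted p = 0.944). Of the pair, 0 passed limma with a Benjamini-Hochberg adjusted p under 0.05 (0.0108% of all 9232 genes did), 0 had an unadjusted p under 0.05 (0.531% of all genes) and 0 passed the 1.5-fold rule (0.152%).

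A single BMDM library, auranofin replicate 1, stood apart. Of 4245 genes that averaged 10 FPKM or more, between 368 and 383 differed at least 2-fold between it and each other BMDM library, against 12 to 15 in the remaining pairs. Relative to the vehicle mean, Tpm1 was at 0.76 on the log2 scale in that library and at 0.03 in auranofin replicate 2. Cnn2 was at -0.19 and 0.26 in the same order. Among the non-muscle relatives, Actb was at -1.86 in auranofin replicate 1 and at -0.02 in replicate 2, and Actg1 at -1.30 and -0.02. The share of its family was higher in both auranofin libraries for 4 of the 9 genes with a family (Acta2, Actg2, Tpm1 and Cnn2) and lower in both for 0. No matching figure over all genes was computed. The actin family summed to 1441 FPKM in auranofin replicate 1 and to 4632 FPKM in replicate 2. Tpm1 was at 4.44% and 4.59% of the tropomyosin FPKM with vehicle and at 8.55% and 4.74% with auranofin. Without auranofin replicate 1 the estimate for Tpm1 was 0.03, and without auranofin replicate 2 it was 0.76 and passed the test (limma with Benjamini-Hochberg adjusted p = 0.000282, 1 auranofin library that is assumed to vary like the vehicle pair).

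The leading tropomyosin and calponin differed between AHSC and BMDM, while the leading actin and myosin heavy chain were the same in both, set side by side without a test. Tpm1 took 55.4% to 58.9% of the tropomyosin FPKM in the AHSC libraries, whereas Tpm3 and Tpm4 together held the greater part in BMDM, with Tpm4 at 44.8% to 51.2%. Cnn2 took 44.8% to 47.0% of the calponin FPKM in AHSC, and Cnn3 took 68.1% to 80.7% in BMDM. Myh9 took 97.2% to 99.4% of the myosin II heavy chains and Actb 69.7% to 77.4% of the actins in BMDM, and they led in AHSC too. Among the 21 partner genes tested in BMDM, 0 passed limma with a Benjamini-Hochberg adjusted p under 0.05 and 0 had an unadjusted p under 0.05, with a median of -0.09 beside 0.09 for all genes. In the myosin and transcription control lists 0 of 10 and 0 of 8 genes tested passed either rule by limma.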

How the data were processed

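RNA sequencing was done on 4 AHSC and 4 BMDM libraries, grouped by the labels. The authors deposited FPKM values in 2 tables on mm10 with RefSeq transcripts. The submitters' processing notes name CASAVA, FastQC 0.11.7, Trimmomatic 0.38, HISAT2 2.1.0 and StringTie 1.3.4d, with no roles. The tables hold no counts, so fragments were estimated from the steps of values under 0.2 FPKM in genes with 1 RefSeq transcript and GENCODE M21 transcript lengths. Gene identifiers matched RefSeq for 18601 of 18645 and 17371 of 17408 genes.

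Each table was fitted alone with limma (eBayes with trend) on log2(FPKM + 1) for genes averaging 1 FPKM or more. This scale understates changes of low genes. Benjamini-Hochberg adjustment ran over all genes tested. The fit was tested on simulated data with 200 genes changed 2-fold, a larger change than that of any of the 10 genes in AHSC. That test therefore does not bear on falls of their size. Family shares were compared by an exact permutation test. The genes and lists were chosen with earlier results of these data known. Genes outside the 10 were named when past an adjusted p of 0.05 (at most 5 per list and direction), when they are family relatives, or as defining markers or regulators. Csrp1 and Actn1 were named after their values were seen. Alternatives were a pseudocount of 0.1, no filter, a mean of at least 5 FPKM, quantile normalization, median centring, no trend, no moderation, a replicate block, a 2-fold threshold and each library left out. The work was done in Python 3.11.15 (pandas 2.3.3, numpy 2.4.6, matplotlib 3.10.9, scipy 1.17.1) and in R 4.3.3 with limma 3.58.1.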

Additional observations from a re-analysis of the deposited data

Results flagged for a closer look

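Acta2, Actg2 and Tpm1 were lower in both auranofin libraries of AHSC and higher in both auranofin libraries of BMDM, which is why they are listed here. On the log2(FPKM + 1) scale the differences were -0.38 in AHSC and 0.12 in BMDM for Acta2. For Actg2 they were -0.39 and 0.19, and for Tpm1 -0.22 and 0.39. Whether the cell types differ was not tested, since dose, time, stimulus and normalization all differ between the tables. Acta2 and Actg2 were below the minimum level for the test in BMDM, and the value of Tpm1 came from auranofin replicate 1 (0.76 there and 0.03 in replicate 2, relative to the vehicle mean). Of all genes tested in BMDM, 26.3% were higher in both auranofin libraries. Mylk was lower in both auranofin libraries of either cell type, but in BMDM it too was below the minimum level and not tested. Its auranofin replicate 2 there held an estimated 24.9 fragments, against 26.2 and 23.7 with vehicle. Of the 9232 genes tested in BMDM, 1161 were lower in both auranofin libraries.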

How the results depend on the processing

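The differences of the 10 contractile genes in AHSC stayed negative under all 12 alternatives, between -0.46 and -0.13, with 0 of 120 values reversed, but their calls did not hold throughout. By limma with a Benjamini-Hochberg adjusted p under 0.05, 6 of the 10 genes were called; the number was 0 with no filter on low values (49 genes called in all, against 283), 2 without the trend (Acta2 and Myh11; 129 in all) and 0 without moderation (0 in all). With each library left out in turn it was 3 to 9, with 3 (Acta2, Myh11 and Myl9) without auranofin replicate 2 and 4 (Acta2, Cnn1, Myh11 and Myl9) without auranofin replicate 1; the lone library of a group is then assumed to vary like the other group. The adjusted p of Acta2 ranged from 0.00206 to 0.281. The cause was not tested. With the replicate block 10 were called, but same-numbered libraries correlated at only 0.11 in AHSC and -0.06 in BMDM over all genes tested. Actg2, Tagln, Cnn1, Cnn2, Tpm1, Tpm2 and Myl9 were higher in replicate 1 than in replicate 2 of both AHSC groups, whereas Acta2 and Myh11 were not. The labels tie the libraries of each of the 2 pairs by number only, so the blocked fit is not preferred.

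In BMDM, without auranofin replicate 2 the adjusted p and the 1.5-fold rule each called 1 gene, Tpm1 (0.76), so that both counts were 0 to 1 over the libraries left out, as was the number with an unadjusted p under 0.05. The number lower by estimate was 5 with no filter, 1 with quantile normalization, 1 with median centring and 0 to 1 over the libraries left out. Cnn2 turned to -0.10 with quantile normalization, -0.06 with median centring and -0.19 without auranofin replicate 2, within -0.19 to 0.26 over the libraries left out. The number of genes with a lower family share in BMDM was 0 and became 0 to 4 over the libraries left out. In BMDM 8 of the 10 genes were under the minimum level, and 2 libraries per group limit all tests.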
